A study of Mus musculus with 6 samples.

Results

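The apolipoprotein genes of mouse liver were followed on arrays of Nrf2 knockout and wild-type animals. They were the 10 genes Apoa1, Apoa2, Apoa4, Apoa5, Apob, Apoc1, Apoc2, Apoc3, Apoe and Apom, taken by name. They were measured by the 16 probe sets annotated to exactly 1 gene symbol among these, of 34945 probe sets with a single symbol on the array. All 16 were bright enough to be tested, among 22519 tested probe sets, of which those with a single symbol stood for 11102 genes.

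Apolipoproteins are the protein part of lipoproteins, the particles that carry triglyceride and cholesterol in plasma, and the liver secretes most of them. Apob forms the shell of very low density lipoprotein, Apoa1 and Apoa2 that of high density lipoprotein, and the exchangeable members steer lipases and receptors. Nrf2, the product of Nfe2l2, is a transcription factor of the antioxidant response that binds antioxidant response elements. Mice lacking it have been studied for changes in hepatic lipid genes as well as in detoxification.

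The arrays held liver RNA of Nrf2 knockout mice and of wild-type controls, both on a mixed C57B/SV129 background and 10 weeks old. There were 3 arrays per genotype, each with RNA of 3 animals mixed, so that errors here are those between pools and the variation among single animals is hidden. The labels call the pools biological replicates, name no treatment, and do not give the sex of the animals or their feeding state. Whether wild-type and knockout animals were littermates is not stated in the labels.

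The brightest Nfe2l2 probe set read 5.74, 7.40 and 6.90 across knockout pools against 696, 598 and 625 across wild-type pools, which matched the labels. The hepatocyte marker Alb, the serum albumin gene, read between 9941 and 11892 over the arrays, while the hepatocyte markers as a list ranged down to Ass1, a urea cycle gene, at 147 to 324. The 2% trimmed mean intensity per array ran from 92.7 to 132. The ratio of 3′ to 5′ actin control intensity averaged 1.97 ± 0.03 (SD, n = 3) on knockout arrays against 1.86 ± 0.08 on wild-type arrays. A two-sided exact permutation test gave p = 0.1, which is the minimum for 3 against 3 pools. For Gapdh the same ratio was 0.77 ± 0.04 on knockout arrays against 0.76 ± 0.006 on wild-type arrays (p = 0.9 by the same permutation test). Nqo1, a quinone reductase whose gene Nrf2 activates, read 23.5, 37.1 and 26.0 on the knockout arrays, each below the 68.1, 48.2 and 50.5 of the wild type, but did not pass the limma test (-0.72 ± 0.22 log2, SE, adjusted p = 0.493). In bulk liver RNA, fewer cells of a type and less RNA per cell cannot be told apart.

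Several apolipoprotein probe sets lay where the array readings were compressed. Of the 10 probe sets with the highest mean intensity on the array 3 belonged to Apoa1 or Apoa2, and 8 of the 16 member probe sets stayed above 8000 on every array. These were the 4 of Apoa1 and those of Apoa2, Apoc1, Apoc3 and Apoe. A probe set's brightness depends on its probes as well as on the transcript, so brightness is given here as a position in the measuring range and not as an amount of mRNA between genes. The cell-level scans, which would show saturated features directly, were not used here.

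The compression was measured from how little the arrays differed at the top. The median intensity of the brightest array was 1.53 times that of the dimmest, and the 99th percentile 1.36 times. At the 99.9th percentile the ratio was 1.13, and the highest readings of the 6 arrays differed by 1.06 times at most, between 15598 and 16555. Wild-type pool 3 read a median of 1.38 times pool 2 among the 3539 probe sets with a mean of 200 to 500. Among the 99 probe sets with a mean of 8000 or more that median was 1.01. Differences at probe sets with a mean of 8000 or more were thus measured on a compressed scale, and the intensities do not give the factor. The median standard deviation between pools of a genotype, after normalization, fell from 0.15 to 0.06 log2 between the same brightness classes. It does not by itself measure compression. It also fell from 0.22 at 50 to 100 to 0.12 at 1000 to 2000, where the ratio of pool 3 to pool 2 stayed at 1.38 and 1.35.

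**Figure D1:**
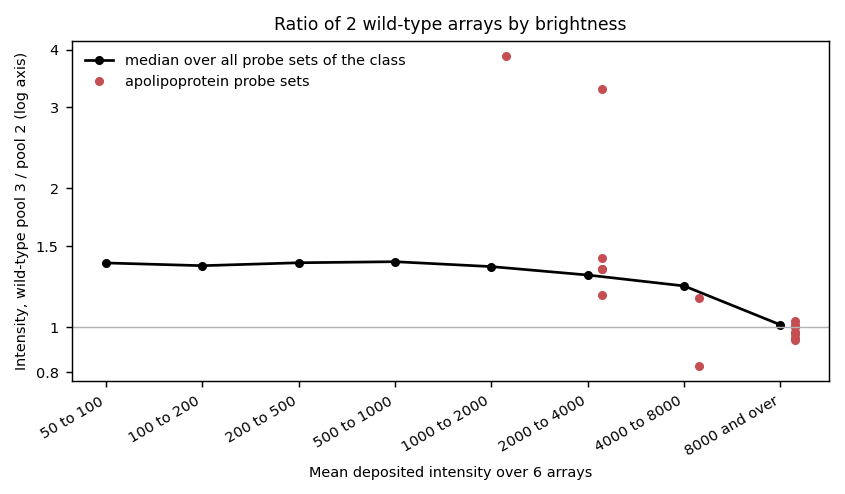
The intensity of wild-type pool 3 divided by that of wild-type pool 2 (vertical, log axis) is plotted by class of mean intensity (horizontal). Black points are medians over all probe sets of a class and red points are apolipoprotein probe sets; the median falls from 1.38 at intensities of 200 to 500 to 1.01 at 8000 and over, while the Apoa4 probe sets stand at 3.87 and 3.28.

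Apoa1, the main protein of high density lipoprotein and the activator of the cholesterol-esterifying enzyme Lcat, read nearly the same on all arrays. Its brightest probe set, 1419232_a_at, had intensities of 15598, 16097 and 16555 across knockout pools against 16405, 16034 and 16055 across wild-type pools. The groups overlapped, and the whole range was 1.06-fold. This probe set ranked first or second on every array. Its normalized difference, 0.09 ± 0.06 log2 (SE, n = 3 per genotype), thus records only that rank, because quantile normalization gives equal ranks equal values. Without normalization the knockout mean was lower by 0.0076 log2.

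The other Apoa1 probe sets gave the same picture of small differences of either sign. 1419233_x_at was at -0.00060 log2 (95% confidence interval -0.13 to 0.13) and 1438840_x_at at -0.0076 (-0.14 to 0.12). 1455201_x_at was at 0.09 (-0.05 to 0.23), and its normalized values in the knockout all lay above those in the wild type. It ranked 2 to 8 on the arrays, and its 3 wild-type values were the same, 13.66 log2, so this separation also records ranks. Its deposited intensities of 12491, 13459 and 13218 in the knockout against 13603, 13685 and 12963 in the wild type overlapped, with the lower mean in the knockout. The ending x_at marks probe sets whose probes can also bind other transcripts, so these 3 are not independent of cross-binding.

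Apoa2, the second structural protein of high density lipoprotein, read 12294, 12861 and 12750 in the knockout against 13729, 12652 and 12796 in the wild type. The pools overlapped, and the normalized difference was 0.03 ± 0.06 log2 (95% confidence interval -0.11 to 0.16, adjusted p = 0.952). Apoe, the ligand by which remnant particles are taken up through the LDL receptor family, read 11201, 11526 and 12119 in the knockout against 11709, 11440 and 11789 in the wild type. Its difference was 0.06 ± 0.06 log2 (-0.07 to 0.19), again with overlapping pools. Within the range these arrays could resolve, the intervals of both genes lay within 1.14-fold in either direction, and compression at this brightness narrows such intervals.

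Apom, the carrier of sphingosine-1-phosphate on high density lipoprotein, lay well below the top of the range and was slightly higher in the knockout after normalization. Its brighter probe set, 1419095_a_at, had deposited intensities of 3568, 3696 and 4086 in the knockout against 3942, 2922 and 3915 in the wild type, which overlapped. After normalization the knockout pools were at 12.01, 11.91 and 11.88 log2, above the wild-type pools at 11.78, 11.72 and 11.74, and the groups no longer overlapped. The difference was 0.19 ± 0.07 log2, 1.14-fold, with an unadjusted limma p of 0.0254 and an adjusted p of 0.6. The dimmer probe set, 1419096_at, went the same way, at 0.16 ± 0.07 (adjusted p = 0.656), also without overlap. Neither probe set passed. Both had small spreads between pools, 0.05 log2 within genotype against a median of 0.11 for the 596 probe sets of like brightness. Without normalization the differences of the brighter and the dimmer probe set were 0.09 and 0.03 log2.

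Apob, the large structural protein of very low density lipoprotein and the ligand of the LDL receptor, had the smallest p of all members. Probe set 1457554_at read 2809, 2754 and 3035 in the knockout against 3169, 1845 and 2469 in the wild type. On the normalized scale the knockout pools were at 11.70, 11.48 and 11.45 log2, above the wild-type pools at 11.44, 11.05 and 11.06, the lowest knockout pool being just above the highest wild-type pool. The difference was 0.36 ± 0.12 log2, 1.28-fold, with a 95% confidence interval of 0.08 to 0.63, an unadjusted p of 0.0171 and an adjusted p of 0.566, so it did not pass. Without normalization it was 0.23 log2. The brighter probe set, 1455593_at, read 6054, 5999 and 7563 in the knockout against 7662, 6198 and 5110 in the wild type. Here the pools overlapped, at 0.22 ± 0.16 log2 (adjusted p = 0.801), and wild-type pool 3 carried the difference, which was 0.0072 without it and 0.06 without normalization.

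The C apolipoproteins and Apoa5 control how fast lipoprotein lipase clears triglyceride. Apoc2, the cofactor that lipoprotein lipase needs, read 2951, 4112 and 3407 in the knockout against 3433, 2702 and 3170 in the wild type. Normalized values were 11.77, 12.07 and 11.62 log2 in the knockout against 11.57, 11.61 and 11.42 in the wild type, which do not overlap. The difference was 0.29 ± 0.12 log2, 1.22-fold (unadjusted p = 0.0373, adjusted p = 0.622), and it was 0.16 without knockout pool 2, the highest pool, and also 0.16 without normalization.

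Apoc3, which slows lipolysis and remnant uptake, read 8753, 9234 and 9018 in the knockout against 9647, 9557 and 9222 in the wild type. Its normalized difference was -0.0052 ± 0.07 log2 (95% confidence interval -0.15 to 0.14). Apoc1, an inhibitor of several lipoprotein-modifying enzymes, read 8165, 8388 and 9111 in the knockout against 8781, 8820 and 8620 in the wild type, a difference of 0.06 ± 0.06 (-0.08 to 0.19). Both genes lay in the compressed range, and their pools overlapped. Apoa5, which promotes lipolysis, read 4958, 4519 and 6708 in the knockout against 6016, 6025 and 6985 in the wild type. It was at -0.11 ± 0.11 log2 (-0.37 to 0.14, adjusted p = 0.855), with overlapping pools, at -0.0052 without knockout pool 2 and at -0.25 without normalization.

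Apoa4, a lipid-responsive protein of chylomicrons and high density lipoprotein made in intestine and in mouse liver, had the widest spread of all members between pools of the same genotype. Probe set 1417761_at read 1791, 690 and 917 in the knockout against 2380, 854 and 3305 in the wild type. Knockout pool 1 stood above the other knockout pools and wild-type pool 2 far below the other wild-type pools, so the groups overlapped. The lowest and highest arrays were 4.79-fold apart. The second probe set, 1436504_x_at, ordered the 6 pools in the same way, at 2287, 920 and 1418 in the knockout against 2795, 1147 and 3767 in the wild type. By its x_at ending its probes can also bind other transcripts.

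The normalized differences of Apoa4 were the largest among the members and the least certain. They were -0.72 ± 0.45 log2 (95% confidence interval -1.74 to 0.31, adjusted p = 0.754) and -0.54 ± 0.40 (-1.44 to 0.36, adjusted p = 0.794). These intervals run from a 3.34-fold decrease to a 1.24-fold increase and from a 2.72-fold decrease to a 1.28-fold increase. The difference at the first probe set ranged from -1.19 without knockout pool 1 to -0.39 without wild-type pool 3, and that at the second from -0.96 without knockout pool 1 to -0.24 without knockout pool 2. The standard deviation within genotype was 0.80 log2 at the first probe set, and only 15 of the 904 probe sets with a mean intensity of 1000 to 2000 had a larger one. At the second it was 0.70, exceeded by 6 of 596 probe sets.

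**Figure D2:**
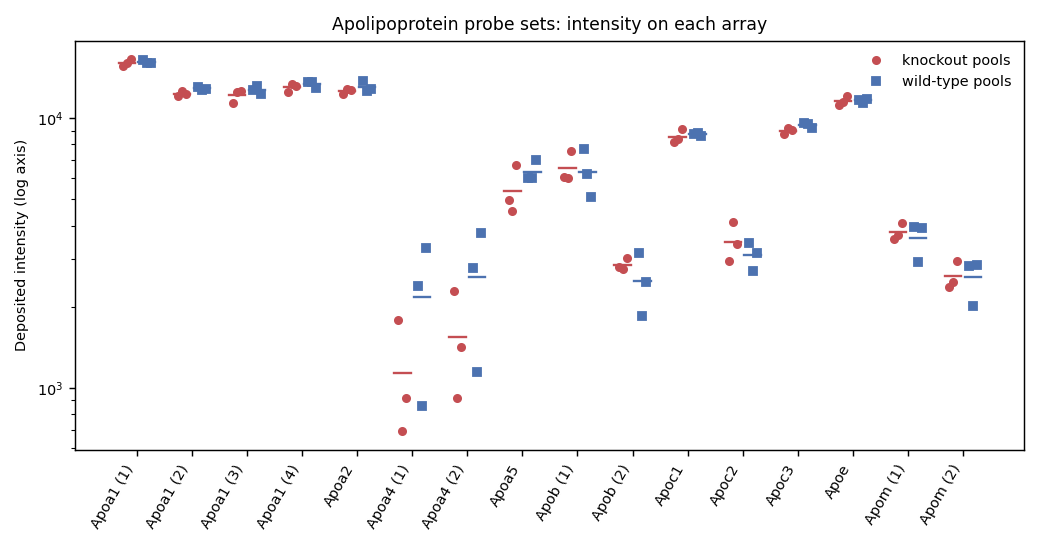
Deposited intensity (vertical, log axis) of the 16 apolipoprotein probe sets (horizontal, numbered where a gene has several, in order of probe set identifier), with 1 point per pool and a line at each genotype mean. Apoa1 and Apoa2 lie close together, between 11428 and 16555, in all pools, while the Apoa4 pools are spread over 4.79-fold at the first probe set.

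**Figure D3:**
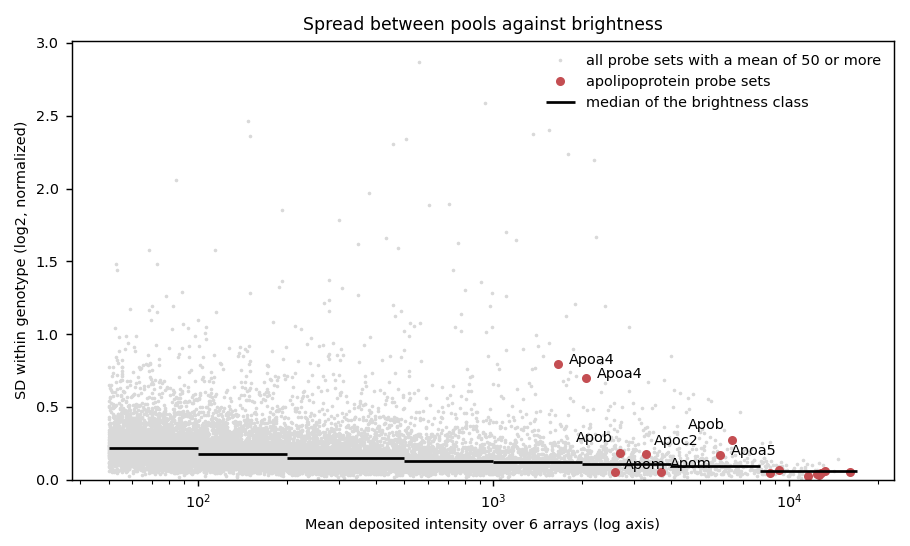
Standard deviation between pools within genotype (vertical, normalized log2) against mean deposited intensity (horizontal, log axis), with grey points for all probe sets with a mean of 50 or more, red points for apolipoproteins and black lines for the median of each brightness class. The medians fall to 0.06 at 8000 and over, and the Apoa4 probe sets stand at 0.80 and 0.70.

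Across the family no member passed. Of the 16 probe sets, and of the 10 genes by their brightest probe set, 0 had an adjusted limma p under 0.05, against 0.142% of all tested probe sets and 0.144% of all genes. At an unadjusted p under 0.05 there were 3 probe sets, of Apob, Apoc2 and Apom, all higher in the knockout, against 3.75% of all probe sets higher and 3.88% lower at that p. This count was 0 with an untrended prior, 0 when wild-type pool 3 was left out, and 1 under median centring of the arrays. It was 4 under a stricter filter (70th percentile) and with array weights, with both Apom probe sets, Apob and Apoc2, all higher. With a replicate block it was also 4, with Apob, Apoc2 and Apom higher and Apoa4 lower. Its members and direction changed too. Without knockout pool 1 it was 2, both of Apoa4 and lower in the knockout (unadjusted p = 0.0146 and 0.0211). With wild-type pool 2 left out it was 3, both Apoa4 probe sets lower (0.0288 and 0.0495) and Apoc2 higher. Without normalization it was 2, again both of Apoa4 and lower.

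By sign, 7 of the 10 genes were higher, against 51.4% of all genes, with a median of 0.06 log2 against 0.0063 for all genes. Of these 7, the 4 genes Apoa1, Apoa2, Apoc1 and Apoe lay in the compressed range. Without normalization, where the median of all genes was -0.14 log2, 3 of the 10 genes were higher. Groups that did not overlap and were higher in the knockout were found at 5 probe sets, against 6.82% of all, and at 2 genes by the brightest probe set, Apoc2 and Apom, against 7.39%. No member probe set had separated groups in the lower direction, against 6.57% of all probe sets. For all 5 of those probe sets the deposited intensities, before normalization, overlapped.

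**Figure D4:**
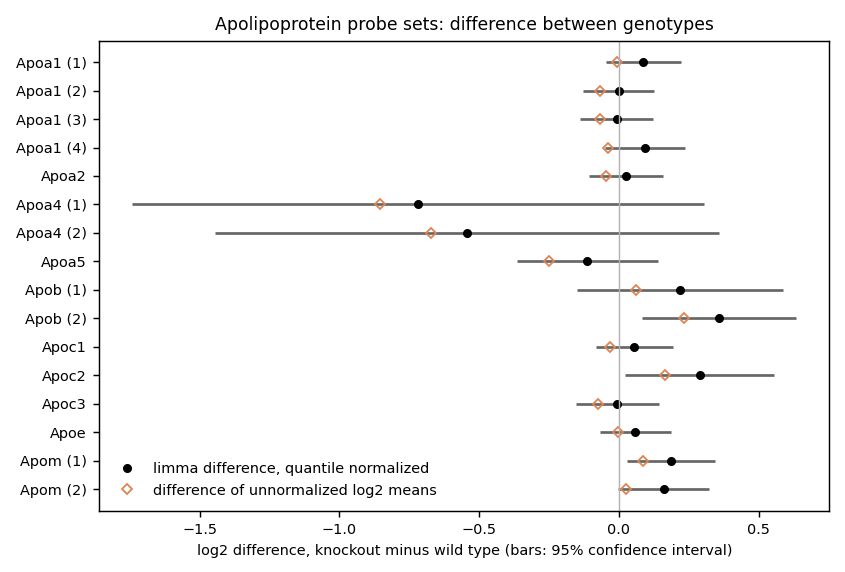
Log2 difference between knockout and wild type (horizontal) for the 16 apolipoprotein probe sets, with filled points for the limma difference after quantile normalization, bars for its 95% confidence interval and open diamonds for the difference of unnormalized log2 means. Every diamond lies to the left of its filled point, and the Apoa4 intervals, from -1.74 to 0.31 and -1.44 to 0.36, are the widest.

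Most members lie in a pair of gene clusters. In the gene order of the mouse assembly GRCm38.p6, Apoa1, Apoc3, Apoa4 and Apoa5 follow one another on chromosome 9. At their brightest probe sets they were at 0.09, -0.0052, -0.54 and -0.11 log2, the value of Apoa1 being the rank-bound one that was -0.0076 without normalization. On chromosome 7, Apoc2, Apoc4, Apoc1 and Apoe follow one another, at 0.29, 0.09, 0.06 and 0.06 log2. None of these passed, and differences between neighbours were not tested.

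Promoter sequences were available from RefSeq (GRCm38.p6) for 8 of the 10 genes, in 12 entries, and not for Apoc1 and Apoc3. The 250 bases before the start site are shown for Apob, Apoc2, Apom and Apoa4, the members with the smallest p-values and with the widest spread. Each is written 5′ to 3′ on the gene's strand, with motif matches in capitals.
Apob, chr12:7977427-7977676, plus strand: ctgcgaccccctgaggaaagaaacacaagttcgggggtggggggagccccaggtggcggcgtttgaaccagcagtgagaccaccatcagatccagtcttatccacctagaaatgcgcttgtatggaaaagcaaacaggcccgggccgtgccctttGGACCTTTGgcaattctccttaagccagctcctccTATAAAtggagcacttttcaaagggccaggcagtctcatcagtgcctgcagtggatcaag
Apoc2, chr7:19677942-19678191, minus strand: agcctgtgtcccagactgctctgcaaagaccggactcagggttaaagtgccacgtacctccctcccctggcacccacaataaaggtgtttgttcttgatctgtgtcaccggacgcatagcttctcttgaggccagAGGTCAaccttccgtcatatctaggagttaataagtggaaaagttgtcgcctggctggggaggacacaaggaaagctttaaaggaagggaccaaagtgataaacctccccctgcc
Apom, chr17:35131802-35132051, minus strand: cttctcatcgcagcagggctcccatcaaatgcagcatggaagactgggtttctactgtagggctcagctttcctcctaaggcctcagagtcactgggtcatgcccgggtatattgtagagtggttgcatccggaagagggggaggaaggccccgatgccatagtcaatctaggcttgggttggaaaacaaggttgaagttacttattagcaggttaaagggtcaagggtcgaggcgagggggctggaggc
Apoa4, chr9:46240594-46240843, plus strand: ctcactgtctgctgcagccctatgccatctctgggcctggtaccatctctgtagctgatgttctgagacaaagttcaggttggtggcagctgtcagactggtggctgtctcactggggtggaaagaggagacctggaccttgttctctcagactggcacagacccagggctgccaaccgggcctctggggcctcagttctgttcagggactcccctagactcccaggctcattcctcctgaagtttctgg
The capitals in Apob mark GGACCTTTG, the reverse complement of the HNF4A-type sequence CAAAGGTCC, and the TATA box TATAAA. HNF4A is a nuclear receptor that drives many hepatic apolipoprotein genes. The capitals in Apoc2 mark the nuclear receptor half-site AGGTCA, and no motif searched was matched in Apom or Apoa4.

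Motifs were searched on both strands of the 250 bases before each start. The core of the antioxidant response element, TGACNNNGC, occurred in 10.2% of all 32851 promoter entries and in 0 of the 12 entries of the members. CAAAGGTCC, chosen after the sequences were seen, occurred in 0.262% of all entries and among the members in Apob, and CAAAGTCCA in 0.384% and in no member entry. TATAAA occurred in 12.4%, and among the members in Apob, in both entries of Apoa5 and in an entry each of Apoa2 and Apoe. AGGTCA occurred in 14.0%, and among the members in Apoc2 and an entry of Apoa2. A match describes letters in these windows and shows no binding, and the absence of a match says nothing of sites elsewhere.

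Genes that assemble, edit, remodel or take up lipoproteins were read from the same fit. Of 129 genes in 6 lists, 106 were tested, and 0 passed by limma, against 0.144% of all genes. With an unadjusted p below 0.05 there were 8 higher and 8 lower genes, against 4.08% and 4.15% of all genes. The median over the 106 genes was -0.0093 log2, and 49 were higher and 57 lower by sign, against 51.4% and 48.6% of all genes.

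No lipoprotein assembly gene passed. By sign 14 of 18 tested were lower, against 48.6% of all genes, with a median of -0.11 log2. An unadjusted p under 0.05 was found for 3, all lower, against 4.15% of all genes lower at that p. Mttp, the transfer protein that loads lipid onto Apob, read 1487, 1337 and 2048 in the knockout against 2418, 1741 and 2562 in the wild type. Its deposited intensities overlapped and its normalized values did not, at -0.32 ± 0.11 log2 (adjusted p = 0.548). Preb, which recruits the small GTPase of COPII vesicles, was at -0.29 ± 0.11, and the cargo receptor gene Surf4 at -0.26 ± 0.11. None passed.

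Genes of the complex that edits Apob mRNA to its short form showed 5 of 7 lower by sign, against 48.6% of all genes, with a median of -0.06 log2. Rbm47, an RNA-binding cofactor of the editing enzyme, read 217, 268 and 317 in the knockout against 493, 336 and 418 in the wild type. Every knockout pool was below every wild-type pool, at -0.46 ± 0.11 log2 with an adjusted p of 0.302. The other cofactor gene, A1cf, was at -0.64 ± 0.25 (adjusted p = 0.611) with overlapping pools, and the chaperone gene Dnajb11 at -0.25 ± 0.15. Editing itself was not measured by these probe sets.

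Among lipases and plasma modifiers, 9 of 17 were higher and 8 lower by sign, against 51.4% and 48.6% of all genes, with a median of 0.02 log2. Lpl, lipoprotein lipase, which is expressed at low levels in adult liver, read 570, 1830 and 874 in the knockout against 722, 362 and 570 in the wild type. It was at 1.02 ± 0.35 log2 (adjusted p = 0.566), and knockout pool 2, the pool highest for Apoc2, was the highest. Lcat, which esterifies cholesterol on high density lipoprotein, was at 0.18 ± 0.07, and Lmf1, a maturation factor of lipases, at -0.26 ± 0.13.

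Of receptors and cholesterol exporters, 12 of 15 were higher by sign, against 51.4% of all genes, with a median of 0.07 log2. Vldlr, a receptor for Apoe-containing, triglyceride-rich particles, read 19.0, 81.2 and 39.6 in the knockout against 11.0, 8.08 and 8.96 in the wild type. Every knockout pool was above every wild-type pool at this dim probe set, at 1.73 ± 0.40 log2 with an adjusted p of 0.309. In the wild-type pools it lay below the median intensity of the array, 22.1, 14.5 and 21.6, and in the knockout pools above it. It thus reached the filter only through the knockout pools, so the separation is no support for a difference. The lipolysis-stimulated receptor gene Lsr was at 0.30 ± 0.12 and the heparan sulfate proteoglycan gene Sdc1 at 0.29 ± 0.18. None passed.

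Transcriptional regulators of apolipoprotein genes were divided, 14 of 29 higher and 15 lower by sign, against 51.4% and 48.6% of all genes, with a median of -0.01 log2. The nuclear receptor gene Nr5a2 was at 0.49 ± 0.12 (adjusted p = 0.319), the bZIP factor gene Cebpb at -1.11 ± 0.33 (0.487) and Pparg at -1.28 ± 0.39 (0.513), each with groups that did not overlap after normalization. The Pparg probe set was dim, at 14.0, 19.7 and 3.89 in the knockout against 37.1, 39.3 and 38.1 in the wild type. In knockout pools 1 and 3 it lay below the median intensity of the array, 15.9 and 19.7. Hnf4a, the factor whose motif type is capitalised in Apob, read 1704, 1763 and 2746 in the knockout against 2399, 1960 and 2784 in the wild type, at -0.08 ± 0.11. Creb3l3, a factor that activates Apoa4 in fasting liver, was at -0.01 ± 0.09, chosen like Hnf4a after its values were seen.

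Other apolipoproteins and proteins carried on high density lipoprotein had 8 of 20 higher and 12 lower by sign, against 51.4% and 48.6% of all genes. Their median was -0.0026 log2. The mitochondrial protein gene Apool was at -0.26 ± 0.10, the phospholipase gene Pla1a at 0.37 ± 0.17 and the haptoglobin gene Hp at 0.12 ± 0.07. None passed. Apoc4, the neighbour of Apoc2, read 3602, 3956 and 4442 in the knockout against 4489, 3793 and 3880 in the wild type, and was named for its position after its values were seen.

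**Figure D5:**
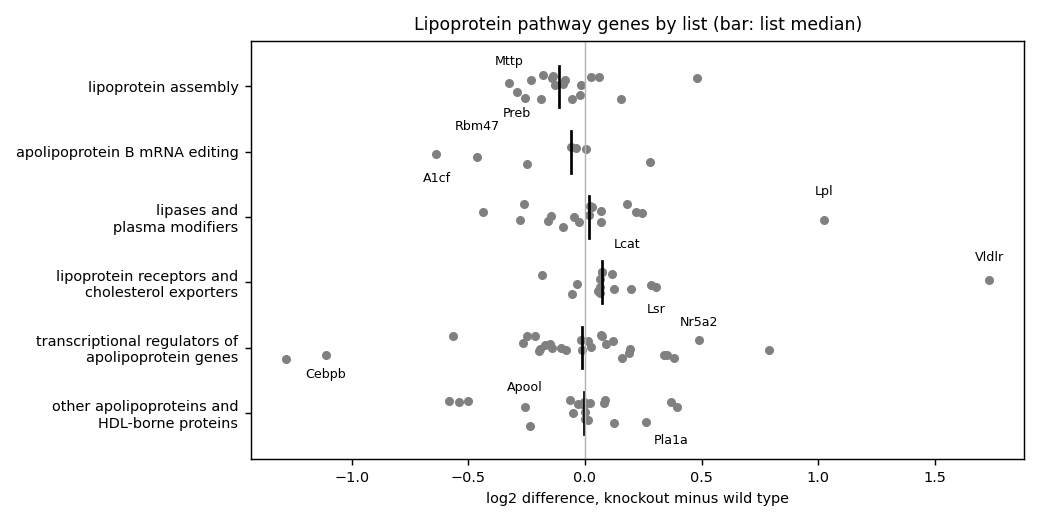
Log2 difference between knockout and wild type (horizontal) of the 106 tested genes of 6 lipoprotein pathway lists (rows), with 1 grey point per gene, a black bar at each list's median and the names of the genes with the smallest p-values. The list medians lie between -0.11 for lipoprotein assembly and 0.07 for receptors and exporters, and no gene passed an adjusted p of 0.05.

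Cell composition was read beside these values. The summed normalized intensity of 9 hepatocyte markers, the cells that make most apolipoproteins, was 78604 to 80208 in the knockout and 76694 to 77055 in the wild type, without overlap. Of these 9, 0 passed by limma and 1 was higher at an unadjusted p under 0.05, against 4.08% of all genes. These sums were carried by markers in the compressed range, and sums of deposited intensities, 75179 to 78997 against 77435 to 80114, overlapped. The 10 stellate cell and fibroblast markers were all higher by sign, against 51.4% of all genes, with sums of 5418 to 5780 against 4406 to 4942. Of these 10, 0 passed and 2 were higher at an unadjusted p under 0.05, against the same 4.08% of all genes. The deposited sums, 4526 to 6361 against 3734 to 5805, overlapped. For 11 Kupffer cell markers, cells that also make Apoe, the sums of 5971 to 7856 and 6026 to 7157 overlapped. The part of these markers' cells in the higher values of Apob, Apoc2 and Apom was not tested. The sums of 8 endothelial markers, 3599 to 3802 against 3259 to 3731, and of 6 cholangiocyte markers, 81.4 to 122 against 85.0 to 136, overlapped too. So did those of 10 lymphocyte and granulocyte markers (385 to 677 against 447 to 482) and 5 red blood cell markers (362 to 1292 against 436 to 1403).

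Markers of intestine, which also makes Apoa4 and Apob, were mostly dim. Of its markers with a probe set, 6 of 9 were too dim to be tested, and Lct and Rbp2, of the enterocyte brush border and cytosol, read at most 12.9 and 4.15. Fabp2, a fatty acid binding protein gene of enterocytes, read 369 to 677 and the aminopeptidase gene Anpep 196 to 271. The list's sum was 731 to 3679 in the knockout and 742 to 986 in the wild type, and the high value came from knockout pool 2, where the trefoil factor gene Tff3 read 2732. The part of intestinal tissue in the spread of Apoa4 was not tested. The sums of 7 pancreas markers were 787 to 1269 and 535 to 920. They were nearly those of Cela1 alone, which read 549 to 1284, while no other pancreas marker read above 36.8. The sums of 6 fat markers were 12807 to 14022 and 13619 to 13847 (12501 to 13405 and 14015 to 14575 as deposited). They were nearly those of Car3 alone, which read 12162 to 14395. The fat hormone genes Adipoq and Lep read at most 6.44 and 1.19, while Fabp4, a lipid-binding protein gene of fat cells and macrophages, read 172 to 325. These sums thus describe single probe sets more than a tissue.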

How the data were processed

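RNA of 3 Nrf2 knockout and 3 wild-type liver pools was measured on 1-colour Affymetrix arrays. Each deposited value is a linear probe set intensity. Per the submitters' processing notes the authors used GCOS 1.4. How signals were summarised or scaled is not given in the sources used here. Names came from the platform annotation, symbols being updated by Entrez identifier. The 64 control probe sets were left out of the tests.

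The log2 of intensity plus 5.26, the 25th percentile of all values, was quantile normalized. Probe sets whose mean reached the median were tested with limma 3.58.1 in R 4.3.3 (lmFit and a trended eBayes), p-values being adjusted by Benjamini-Hochberg over all of them with a threshold of 0.05. Fold changes are on this scale and understate dim probe sets. A gene took its brightest tested probe set. The number of arrays limits the precision.

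The members and lists were chosen with earlier results of these data known. Named were all member probe sets, up to 3 genes of each pathway list with the smallest p, Nfe2l2, Nqo1, and others said to be chosen after their values were seen. Marker lists were described by their sums, over the brightest probe set of each marker. The alternatives were other scalings, pseudocounts, filters and variance models, a replicate block, each pool left out and a gene's mean over its probe sets. The fit without normalization was added after seeing the data. The procedure was tested on simulated data.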

Additional observations from a re-analysis of the deposited data

How the results depend on the processing

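Over all alternatives 0 apolipoprotein probe sets and 0 apolipoprotein genes passed. The lowest adjusted p of any member was 0.0995, for Apoa4 in the fit without normalization, which was chosen after seeing the data. That fit leaves the arrays' own scale in the differences: the median over all genes was -0.14 log2, that of the apolipoprotein genes -0.020, 143 probe sets passed, and 3 pathway genes, Cebpb, Pparg and Vldlr, passed. The probe sets of Pparg and Vldlr were dim, below the array median in knockout pools 1 and 3 for Pparg and in every wild-type pool for Vldlr. Without normalization Apoa1 (1419232_a_at and 1455201_x_at), Apoa2, Apoc1 and Apoe reversed, at -0.0076, -0.040, -0.047, -0.032 and -0.0044. With arrays scaled to a common trimmed mean the apolipoprotein median was 0.14 log2. Near-zero values reversed there for Apoa1 (0.089 at 1419233_x_at, 0.087 at 1438840_x_at) and Apoc3 (0.081), with median centring (0.039, 0.037 and 0.032), and with array weights for Apoa1 1419233_x_at (0.0056) and Apoc3 (0.0060). With a pool left out these 3 ranged from -0.015 to 0.026, -0.021 to 0.017 and -0.030 to 0.041. The cause was not tested. The count over all probe sets, 32, fell to 20 when dim probe sets were kept, to 19 under the stricter filter (70th percentile), to 18 with an untrended prior, and was 18 to 29 with a pool left out (19 without knockout pool 1, 19 without knockout pool 2, 18 without wild-type pool 2). The apolipoprotein median then ranged from 0.03 to 0.06. With the replicate number as a block, 32 probe sets and 0 apolipoprotein probe sets passed. In that fit the unadjusted limma p was 0.0022 for Apob 1457554_at, 0.011 for Apoc2 and 0.031 for Apom 1419095_a_at, all higher. It was 0.049 for Apoa4 1417761_at, lower, and the lowest adjusted p of a member was 0.249. Pools of the same number had deviations that correlated at 0.13, 0.05 and 0.25. Knockout pools 1 and 3 correlated best with the wild-type pool of their number, and knockout pool 2 with wild-type pool 1. These correlations do not settle whether the numbers pair the pools, and the labels do not say so, so the main fit had no block. No alternative moved a call of a member.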
